A study of Mus musculus with 2 samples.

Results

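The genes that carry out DNA replication were described in cultured mouse brain pericytes (PCs), the mural cells that wrap brain capillaries. The genes were chosen by symbol: the MCM, ORC, RFC and GINS genes, the subunits of polymerases alpha, delta and epsilon that fit the naming pattern, the primase and RPA genes, and Pcna, Cdc6, Cdt1, Cdc45, Fen1 and Lig1. The pattern found 44 of the 31053 genes listed, all of them protein-coding in GENCODE M21 on the mouse build GRCm38. The catalytic subunit of polymerase epsilon, Pole, carries no number in its symbol and is described with the neighbouring pathways.

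The cells came from brains of wild-type C57BL/6N females, 6 to 8 weeks old, with 6 mice pooled per isolation. They were cultured for 5 passages (PC5) or 20 passages (PC20). Single-cell RNA sequencing gave 1 library at each passage. According to the methods of the study each passage came from its own isolation, whereas the deposited design text speaks of a single one, so passage and isolation cannot be told apart. With 1 library per passage no test between passages could be made, and every interval below covers counting error in these libraries only.

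Barcodes were kept where over 1000 genes and fewer than 20% mitochondrial UMIs (unique molecular identifiers, the tags that mark single RNA molecules) were seen, which left 9950 of 10629 barcodes in PC5 and 4749 of 4884 in PC20. The median depth was 21700 UMIs per cell in PC5 and 33424 in PC20, and the libraries shared 20 barcodes. Levels are given as CPM, the UMIs of a gene summed over cells and scaled to a total of 1000000, and single cells were compared after random thinning to 10500 UMIs each. The labelled cell type was checked against 5 pericyte markers. Pdgfrb stood at 44.6 CPM at passage 5 and 5.43 CPM at passage 20, Cspg4 at 5.55 and 0.0994 CPM, and Anpep at 1.93 and 3.00 CPM, while Rgs5 was seen with 405 UMIs and with 0, and Abcc9 with 1 UMI in each. Of 16 markers of 6 other cell types, 12 were higher in PC5, 1 in PC20 (Slc4a4), and Cd48, Adgre1 and Mobp had 0 UMIs in both libraries, which allows up to 3. Their summed level was 1904 CPM at passage 5 and 379 CPM at passage 20. Fibroblast markers held 1302 and 101 CPM of this and smooth muscle markers 283 and 49.5 CPM. Endothelial markers held 168 and 0.136 CPM and astrocyte markers 151 and 229 CPM, whereas the 5 pericyte markers summed to 53.9 and 8.53 CPM. The part of these differences in the values below was not tested.

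DNA is copied once per cell division. In G1 the origin recognition complex, CDC6 and CDT1 load rings of the MCM2-7 helicase onto DNA, which licenses an origin. In S phase CDC45 and the GINS complex join and activate the helicase, polymerase alpha with primase lays down primers, polymerases epsilon and delta extend the leading and lagging strands on the PCNA clamp that RFC loads, RPA coats single-stranded DNA, and FEN1 and LIG1 finish the lagging strand. Transcripts of many of these genes are known to rise at the G1 to S transition under E2F factors.

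Transcripts of the replication machinery made up a larger share of the RNA in PC20 than in PC5. Summed over the 44 genes, the level was 687 CPM at passage 5 and 1297 CPM at passage 20, 1.89-fold higher in PC20, with a log2 ratio of PC5 over PC20 of -0.92 (95% interval -0.93 to -0.91). The licensing factor Cdt1, the clamp loader subunit Rfc4 and the helicase factor Cdc45 showed the largest ratios, between 5.95-fold and 8.39-fold higher in PC20. Other members of the same complexes had smaller ratios, and 4 genes were higher in PC5, by log2 ratios of at most 0.27.

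Of the 44 genes, 42 were seen in 10% or more of cells in one library or both, and these were counted as expressed. Orc1 and Gins3 fell short of that. A gene was counted as higher by size when its level differed more than 2-fold, that is, when its log2 ratio lay past 1 or -1. By this count 21 of the 42 genes were higher in PC20, against 19.1% of the 10504 expressed genes of the series, and 0 were higher in PC5, against 17.9%. In direction alone 38 of the 42 were higher in PC20, against 51.1% of expressed genes. The 4 others were Orc2, Fen1, Pole4 and Prim2. A further count of ratios within 0.5 of 0 held 11 of the 42 genes and 37.1% of expressed genes. The median log2 ratio was -0.99 for the 42 genes and -0.03 for all expressed genes. The filter favours genes that are high in the deeper library: with a UMI required in 10% of the cells of both libraries, 31 genes were left, of which 13 were more than 2-fold higher in PC20, against 14.1% of the 8612 genes that passed the same filter.

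**Figure D1:**
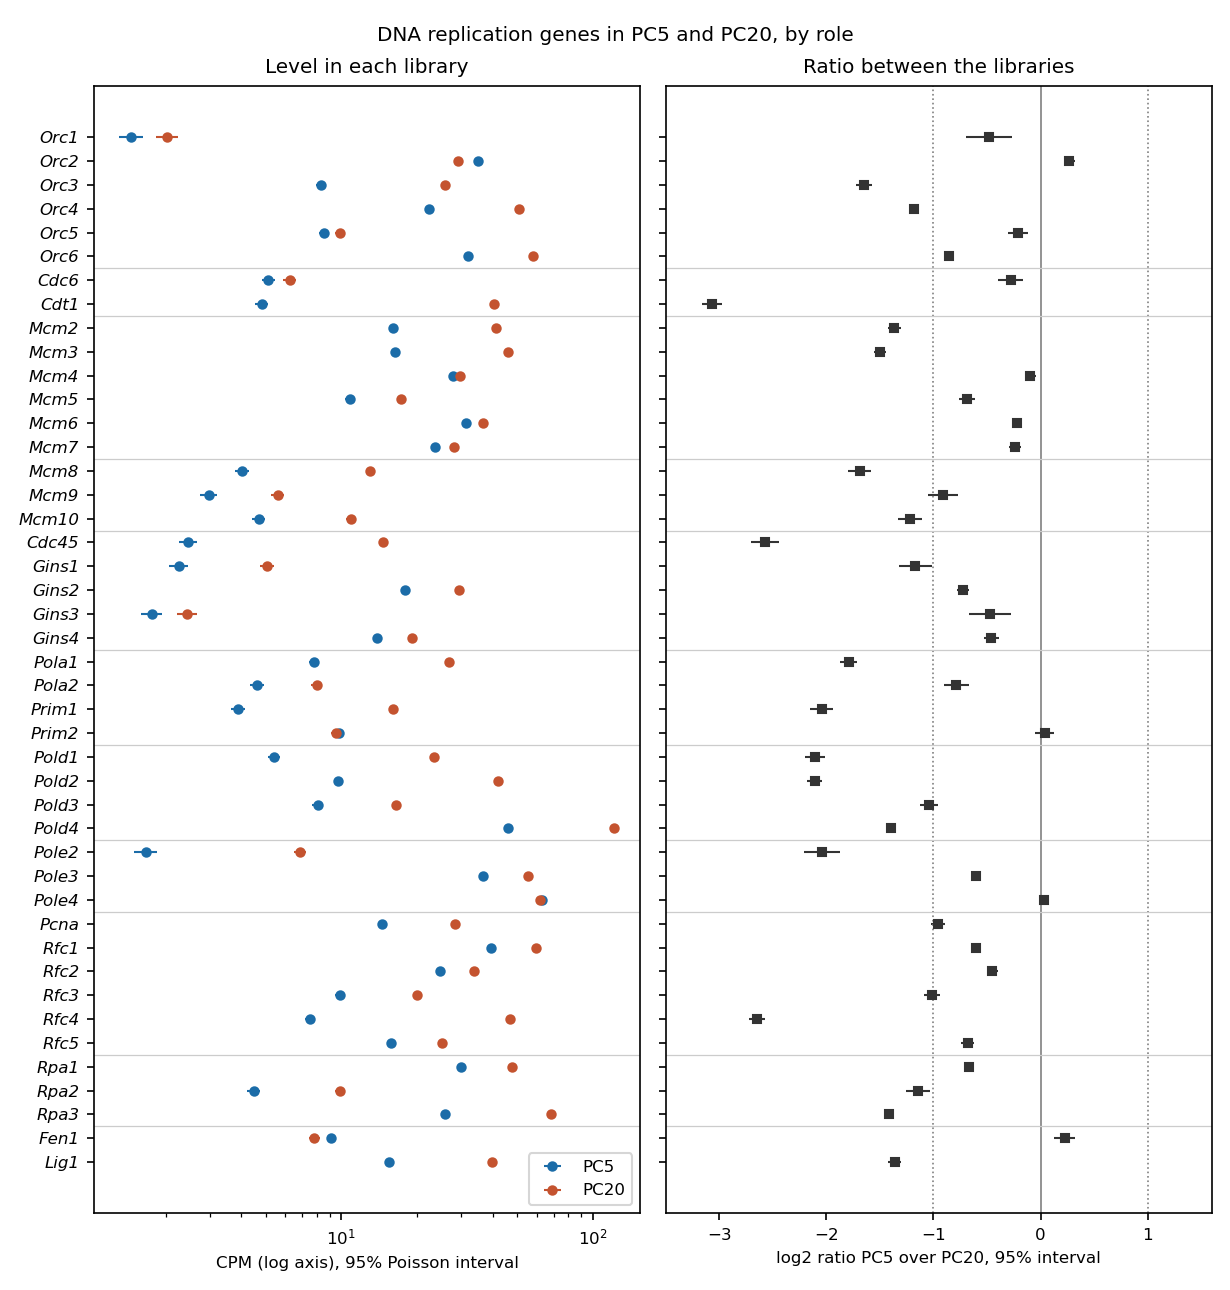
Level of each of the 44 genes in CPM on a log axis (left, blue PC5, orange PC20, bars 95% Poisson intervals) and the log2 ratio of PC5 over PC20 (right, bars 95% intervals, dotted lines at 1 and -1), grouped by role from the origin recognition complex at the top to the lagging-strand enzymes at the bottom. Cdt1, Rfc4 and Cdc45 lie farthest to the left at -3.07, -2.64 and -2.57, and Orc2 lies farthest to the right at 0.27.

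Origin licensing held the largest contrast within one step. Cdt1, which brings the MCM ring to the origin, stood at 4.82 CPM (4.54 to 5.12) at passage 5 and 40.5 CPM (39.6 to 41.4) at passage 20, a log2 ratio of -3.07 (-3.16 to -2.98). Cdc6, the ATPase that acts beside it, stood at 5.13 CPM at passage 5 and 6.23 CPM at passage 20, a log2 ratio of -0.28 (-0.40 to -0.16). The 2 loading factors thus differed from each other by 2.79 on the log2 scale. In thinned cells 4.54% (Clopper-Pearson 4.12 to 5.00) of PC5 cells and 31.1% (29.8 to 32.5) of PC20 cells held a Cdt1 UMI.

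The origin recognition complex was uneven. Orc3 was at 8.28 CPM at passage 5 and 25.9 CPM at passage 20 (log2 ratio -1.65, interval -1.72 to -1.57), and Orc4, an ATPase subunit, at 22.4 and 50.9 CPM (-1.18, -1.23 to -1.13). Orc2 went the other way, with 35.1 CPM at passage 5 and 29.2 CPM at passage 20, a log2 ratio of 0.27 (0.22 to 0.32). The ratios of Orc5 and Orc6 were -0.21 and -0.85. Orc1, the subunit that binds CDC6, was scarce, with 1.46 CPM at passage 5 and 2.03 CPM at passage 20. Summed over the 6 genes the log2 ratio was -0.70.

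The 6 genes of the MCM2-7 ring, which are built into one complex in equal number, split into separate groups by their ratio. Mcm3 stood at 16.4 CPM at passage 5 and 46.1 CPM at passage 20 (log2 ratio -1.50, -1.55 to -1.44) and Mcm2 at 16.0 and 41.3 CPM (-1.36, -1.42 to -1.31). Mcm5 was intermediate at 10.8 and 17.3 CPM (-0.68). Mcm4 (27.9 and 29.8 CPM, -0.10), Mcm6 (31.3 and 36.5 CPM, -0.22) and Mcm7 (23.7 and 28.0 CPM, -0.24) differed by less than 0.5 between the libraries, although their intervals lay below 0. The ring as a whole went from 126 CPM in PC5 to 199 CPM in PC20, a log2 ratio of -0.66. Of the MCM genes outside the ring, Mcm8, which acts in recombination, had a log2 ratio of -1.69 (4.04 and 13.0 CPM), and Mcm10, which helps to start the fork, one of -1.22 (4.70 and 10.9 CPM). Mcm9, the partner of Mcm8, stood at -0.91.

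Among the factors that turn the loaded ring into a moving helicase, Cdc45 was at 2.46 CPM (2.26 to 2.67) at passage 5 and 14.6 CPM (14.1 to 15.2) at passage 20, a log2 ratio of -2.57 (-2.71 to -2.44). The 4 GINS genes, whose products form one tetramer, had smaller ratios, from -1.17 for Gins1 (2.26 and 5.08 CPM) over -0.72 for Gins2 and -0.47 for Gins3 to -0.46 for Gins4 (13.9 and 19.1 CPM).

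Polymerase delta was the complex in which every gene passed the 2-fold mark. Pold1, the catalytic subunit, stood at 5.41 CPM at passage 5 and 23.3 CPM at passage 20 (log2 ratio -2.11, -2.20 to -2.02), and Pold2, which joins it to the others, at 9.72 and 42.0 CPM (-2.11, -2.18 to -2.04). The accessory subunits Pold3 and Pold4 were at 8.05 and 16.5 CPM (-1.04) and at 46.1 and 122 CPM (-1.40). Summed over the 4 genes the level was 69.3 CPM at passage 5 and 204 CPM at passage 20, 2.94-fold higher in PC20. Pold3 was under the 2-fold mark, at -0.79 and -0.82, when cells without and with a Mki67 or Top2a UMI were taken separately.

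The primase and polymerase alpha genes fell apart by subunit. Prim1, which carries the primase active site, was at 3.89 CPM at passage 5 and 16.0 CPM at passage 20 (log2 ratio -2.04, -2.16 to -1.94). Its partner in the heterodimer, Prim2, was at 9.80 and 9.55 CPM, a log2 ratio of 0.04 whose interval (-0.05 to 0.13) included 0. Pola1, the catalytic subunit of polymerase alpha, was at 7.79 and 26.9 CPM (-1.79, -1.87 to -1.71), whereas Pola2, its regulatory subunit, had a ratio of -0.79. The accessory subunits of polymerase epsilon were as uneven. Pole2 stood at 1.67 and 6.84 CPM (-2.04, -2.21 to -1.87), Pole3 at -0.60, and Pole4 at 63.1 and 61.6 CPM (0.04). Pole3 and Pole4 form a histone-fold pair, which also serves in chromatin. Pole2 overlaps an exon of Gm49384 on the same strand, so its counts are uncertain.

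Of the clamp and its loader, Rfc4 was at 7.52 CPM (7.17 to 7.89) at passage 5 and 47.0 CPM (46.1 to 48.0) at passage 20, a log2 ratio of -2.64 (-2.72 to -2.57). The other small RFC subunits, which share the loader ring with it, had ratios of -0.45 (Rfc2), -1.01 (Rfc3, 9.89 and 20.0 CPM) and -0.68 (Rfc5), and the large subunit Rfc1 one of -0.60. Pcna, the clamp itself and a common proliferation marker, was at 14.5 and 28.3 CPM, a log2 ratio of -0.96 just short of the 2-fold mark. Named pseudogenes of Pcna are annotated, and reads that match them equally well could affect its count. For replication protein A, the ratio was -1.41 for Rpa3 (25.8 and 68.6 CPM), -1.15 for Rpa2 (4.48 and 9.92 CPM) and -0.67 for Rpa1. On the lagging strand Lig1, the ligase that seals the fragments, was at 15.5 and 39.9 CPM (-1.36, -1.42 to -1.30). Fen1, the nuclease that trims the flaps ahead of it, was at 9.13 CPM at passage 5 and 7.81 CPM at passage 20, a log2 ratio of 0.23 (0.13 to 0.32). These lagging-strand enzymes therefore lay on opposite sides of 0.

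In 9 of the 11 roles the ratios of the members spanned more than 1 on the log2 scale. The widest span was that of the licensing factors at 2.79, followed by the clamp and its loader at 2.19, CDC45 with GINS at 2.11, and polymerase alpha with primase at 2.08. The narrowest was that of replication protein A, at 0.74. Spans of other groups of genes were not taken. Only 37.1% of all expressed genes had a ratio within 0.5 of 0, so a span over 1 cannot be called particular to these roles.

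Promoters of these genes were read for E2F-type motifs, because genes of this kind are known E2F targets. RefSeq (GRCm38.p6) gave a promoter window for 38 of the 44 genes; Gins1, Gins2, Gins4, Mcm4, Prim2 and Rfc2 had none. The 250 bases before the start site were searched on both strands for TTTCGCGC, TTTGGCGC, TTTCCCGC and TTTGCCGC, of which TTTGGCGC on one strand can overlap TTTCGCGC on the other. At least 1 of these stood before 10 of the 38 genes (26.3%) and before 583 of the 27025 genes with a window (2.16%). The 10 were Cdc6, Gins3, Mcm5, Mcm6, Mcm7, Orc1, Orc3, Pola1, Pole4 and Rfc3. Shown are 4 windows on the strand of the gene, with motif letters in capitals: that of Cdt1 (chr8:122567765-122568014, plus strand), the gene with the largest ratio, those of the ring genes Mcm5 (chr8:75109259-75109508, plus) and Mcm6 (chr1:128359706-128359955, minus), and that of Pola1 (chrX:93632156-93632405, minus), which has a motif and a large ratio.
Cdt1: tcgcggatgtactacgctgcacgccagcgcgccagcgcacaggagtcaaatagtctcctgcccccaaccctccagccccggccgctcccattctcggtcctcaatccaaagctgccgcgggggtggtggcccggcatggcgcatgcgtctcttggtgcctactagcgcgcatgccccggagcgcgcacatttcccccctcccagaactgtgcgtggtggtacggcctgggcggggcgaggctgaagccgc
Mcm5: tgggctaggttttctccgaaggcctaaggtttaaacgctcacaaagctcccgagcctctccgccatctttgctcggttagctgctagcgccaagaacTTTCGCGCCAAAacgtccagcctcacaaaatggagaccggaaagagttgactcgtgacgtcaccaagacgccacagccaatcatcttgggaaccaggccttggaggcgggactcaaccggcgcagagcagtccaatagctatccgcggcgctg
Mcm6: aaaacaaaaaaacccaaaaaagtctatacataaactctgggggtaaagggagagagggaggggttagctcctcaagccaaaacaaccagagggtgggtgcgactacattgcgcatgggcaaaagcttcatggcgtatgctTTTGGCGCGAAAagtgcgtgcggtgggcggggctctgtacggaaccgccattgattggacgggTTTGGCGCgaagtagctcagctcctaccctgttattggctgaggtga
Pola1: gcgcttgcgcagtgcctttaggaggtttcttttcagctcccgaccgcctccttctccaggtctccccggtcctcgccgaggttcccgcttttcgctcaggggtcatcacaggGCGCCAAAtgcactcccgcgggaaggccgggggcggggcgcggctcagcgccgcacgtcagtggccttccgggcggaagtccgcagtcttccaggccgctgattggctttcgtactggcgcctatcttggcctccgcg

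In the window of Mcm5 a pair of motifs overlapped, Mcm6 held an overlapping pair and a single motif, Pola1 held 1, and the window of Cdt1 held 0 of these letters. The 8 expressed genes with a motif had a median log2 ratio of PC5 over PC20 of -0.48, and 3 of them were more than 2-fold higher in PC20. The 28 without a motif had a median of -1.20, and 17 of them were past that mark. The 6 genes without a window, whose motifs are unknown, had a median of -0.46, and 1 of them was past it. Of all expressed genes 19.1% were past it. A match is a description of the letters only, and no test between these groups was made.

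Counted per cell, more of the replication genes were seen at passage 20. In cells thinned to 10500 UMIs, which 8847 PC5 cells and 4474 PC20 cells were deep enough for, a median of 5 of the 44 genes had a UMI in PC5 (10th to 90th percentile 2 to 11) and 9 in PC20 (4 to 17). Without thinning the medians were 9 and 20. No replication gene at all was seen in 79 PC5 cells (0.893%, Clopper-Pearson 0.708 to 1.11) and in 1 PC20 cell (0.0224%, 0.000566 to 0.124). Cells with a UMI for 20 or more of the genes were 12 in PC5 (0.136%, 0.0701 to 0.237) and 236 in PC20 (5.27%, 4.64 to 5.97). Shares of thinned cells with a UMI ran from 1.42% for Orc1 to 46.1% for Pole4 in PC5, and from 1.81% for Orc1 to 68.7% for Pold4 in PC20. As a floor, 10 genes of other lineages were read at the same depth, 0 of which were counted as expressed. Their highest share was 0.486% (0.352 to 0.654) in PC5, for Csf1r, and 0.112% (0.0363 to 0.261) in PC20, for Pecam1. The 10 genes were chosen with earlier results of these data known, so their low shares are not a test. Other-lineage markers that these cells do express, such as those of fibroblasts (summed 1302 CPM at passage 5), are not among the 10. Of the 2 endothelial markers (summed 168 CPM at passage 5), Pecam1 is among them and the other was counted as expressed.

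**Figure D2:**
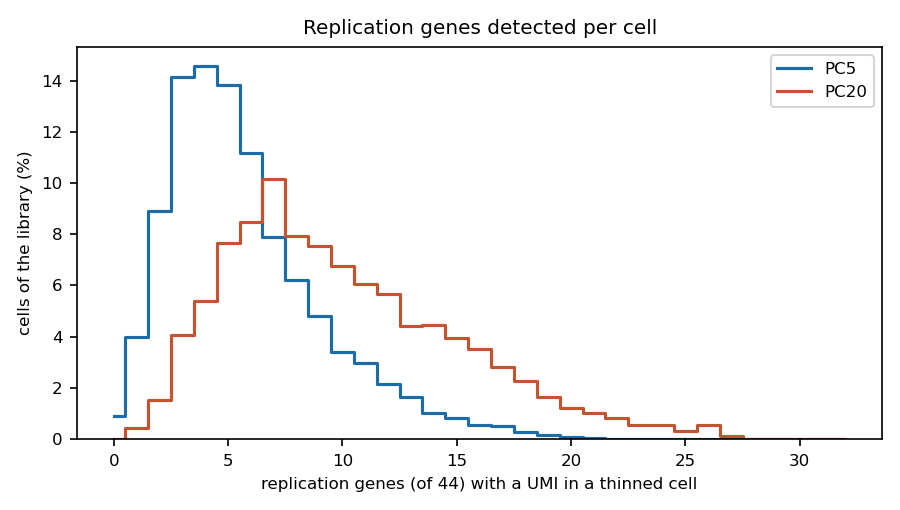
Share of thinned cells (y axis, percent) against the number of the 44 genes with a UMI in the cell (x axis), for 8847 PC5 cells (blue) and 4474 PC20 cells (orange). The medians are 5 in PC5 and 9 in PC20, and cells with 20 or more of the genes are 0.136% and 5.27%.

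Because replication genes follow the cell cycle, the cells were grouped by their levels of other cycle genes. A list of 30 S phase genes and a list of 54 G2 and M phase (G2M) genes, neither of which holds any of the 44, were summed in each thinned cell. Cells above 8 UMIs for the first list or above 30 for the second, the 67th percentile over both libraries together, were called high for it. This gave 4 classes: low for both, S only, S and G2M, and G2M only. A class is a range of a score and not a cell type, and 1387 PC5 cells (15.7%) and 780 PC20 cells (17.4%) lay within 1 UMI of a limit. The low class held 65.2% (64.2 to 66.2) of PC5 and 45.4% (43.9 to 46.8) of PC20 cells, and the class high for both lists 13.3% (12.6 to 14.1) and 35.3% (33.9 to 36.7). S only cells were 8.84% and 9.05%, and G2M only cells 12.7% and 10.3%. The classes do not have equal list levels in both libraries. In the class high for both, the G2M list summed to 5515 CPM at passage 5 and 8916 CPM at passage 20, and the S list to 1461 and 1611 CPM. In low cells the G2M list summed to 1128 and 1474 CPM and the S list to 312 and 398 CPM. In G2M only cells these were 5281 and 7291 CPM for G2M and 520 and 542 CPM for S. In S only cells they were 1903 and 1948 CPM for G2M and 1283 and 1253 CPM for S.

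Replication genes were highest where the S list was high. Summed over the 44 genes, the level in PC5 was 487 CPM in low, 1069 in S only, 1235 in S and G2M, and 689 in G2M only cells. In PC20 the same classes stood at 850, 1704, 1806 and 1093 CPM. Each class was higher in PC20, and low PC20 cells stood above G2M only PC5 cells.

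Within PC5, 27 of the 42 expressed genes were more than 2-fold higher in S only than in low cells, against 3.65% of all expressed genes. Within PC20 it was 28 of 42, against 3.26%. In S and G2M cells over low cells the counts were 31 in PC5 (6.19% of expressed genes) and 30 in PC20 (5.18%), and in G2M only cells over low cells 11 in PC5 (3.80%) and 10 in PC20 (3.50%). Between S only and G2M only cells, 13 genes in PC5 (1.63%) and 15 in PC20 (3.70%) were more than 2-fold higher in S only. In both libraries 41 of the 42 genes were higher in S only than in low cells, against 59.3% of expressed genes in PC5 and 60.5% in PC20. The exception in both was Pold4, the smallest subunit of polymerase delta, at 53.9 CPM in low and 38.7 CPM in S only cells of PC5, and 140 and 127 CPM in PC20. It was the 1 gene that was highest in low cells in either library. The S and G2M class held the highest level for 32 of the 42 genes in PC5 and for 31 in PC20. The share of all expressed genes that were highest in this class was not counted. Some of these leads were small, as for Mcm3 in PC20, with 86.4 CPM in S and G2M and 86.1 CPM in S only cells. The class with the highest level was the same in both libraries for 29 of the 42 genes. With most genes in 1 class, many such matches arise in any case, and the share of all expressed genes was not counted.

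**Figure D3:**
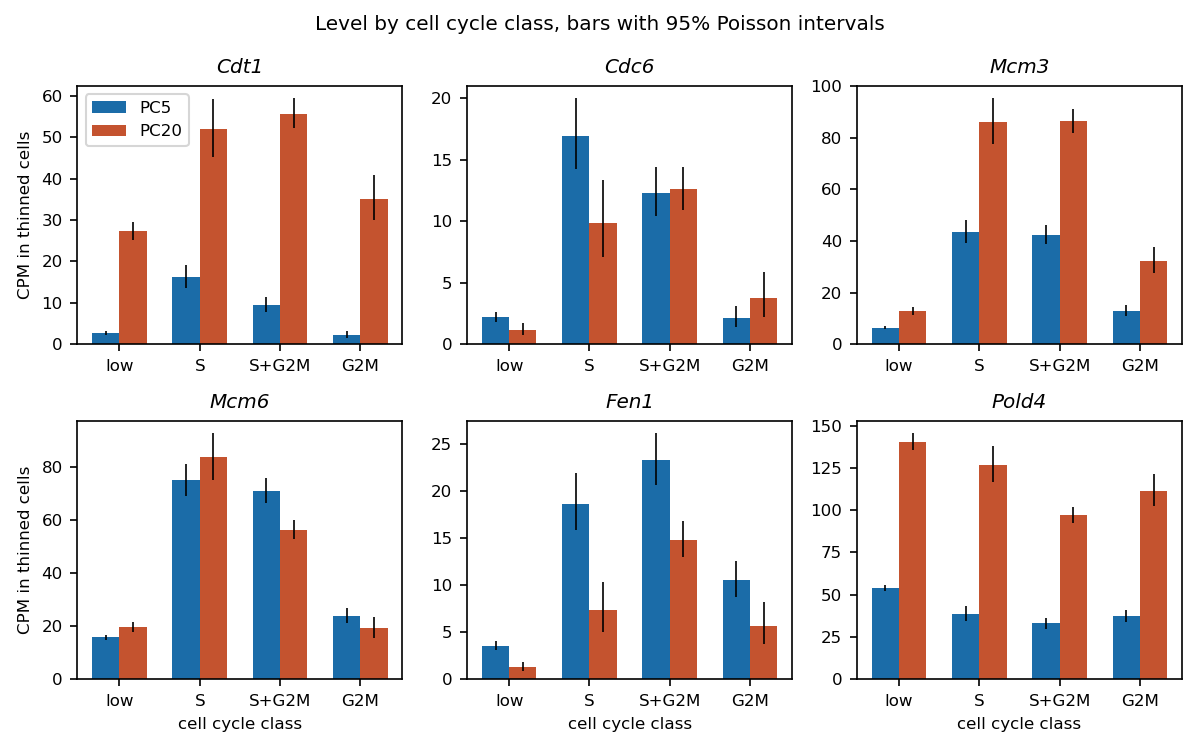
CPM of 6 genes in thinned cells of each class, labelled low, S (S only), S+G2M (S and G2M) and G2M (G2M only), for PC5 (blue) and PC20 (orange), with 95% Poisson intervals as thin lines. Low cells of PC20 hold 27.3 CPM of Cdt1 against 2.69 CPM in PC5, Fen1 is higher in PC5 in each class, and Pold4 is highest in low cells.

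Set side by side within a class, most genes kept a higher level in PC20, although the list levels of a class differed between the libraries. The median log2 ratio of PC5 over PC20 was -0.59 in low, -0.65 in S only, -0.59 in S and G2M, and -0.74 in G2M only cells, where that of all expressed genes was -0.03, -0.01, 0.06 and 0.09. More than 2-fold higher in PC20 were 15 genes in low (19.3% of expressed genes), 15 in S only (19.1%), 13 in S and G2M (16.5%) and 13 in G2M only cells (16.6%). The filter on either library was used here. Of the genes in these counts, Cdt1, Mcm8, Mcm9, Cdc45, Gins1, Prim1 and Pole2 passed it through PC20 alone. The counts within classes were not repeated with the filter on both libraries. More than 2-fold higher in PC5 was Fen1 alone, in low (18.7%) and in S only cells (19.4%), and 0 genes in S and G2M (20.0%) and in G2M only cells (20.8%).

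In all 4 classes 29 of the 42 genes were higher in PC20 (39.4% of expressed genes), and 20 of them had every interval below 0. The ratio was below -1 in all 4 classes for 9 genes (12.8% of expressed genes): Orc3, Cdt1, Mcm8, Cdc45, Pola1, Pold1, Pold2, Pold4 and Rfc4. Of these, Cdt1, Mcm8 and Cdc45 passed the filter through PC20 alone. Higher in PC5 in all 4 classes were Orc2, Mcm4, Prim2, Pole4 and Fen1 (5 of 42, against 42.4%), and of these Orc2 and Fen1 had every interval above 0. The share of all expressed genes with every interval on one side of 0 was not counted. An interval also narrows with the number of UMIs of a gene. The direction differed between classes for Orc5, Cdc6, Mcm5, Mcm6, Mcm7, Mcm10, Rfc2 and Rfc5. Of these, only Mcm6 and Rfc2 had intervals clear of 0 on both sides. Cdc6, Mcm7, Mcm10 and Rfc5 had them clear of 0 in a single direction. For Orc5 and Mcm5 every interval included 0, so a change of direction is not shown beyond counting error for most of these genes.

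**Figure D4:**
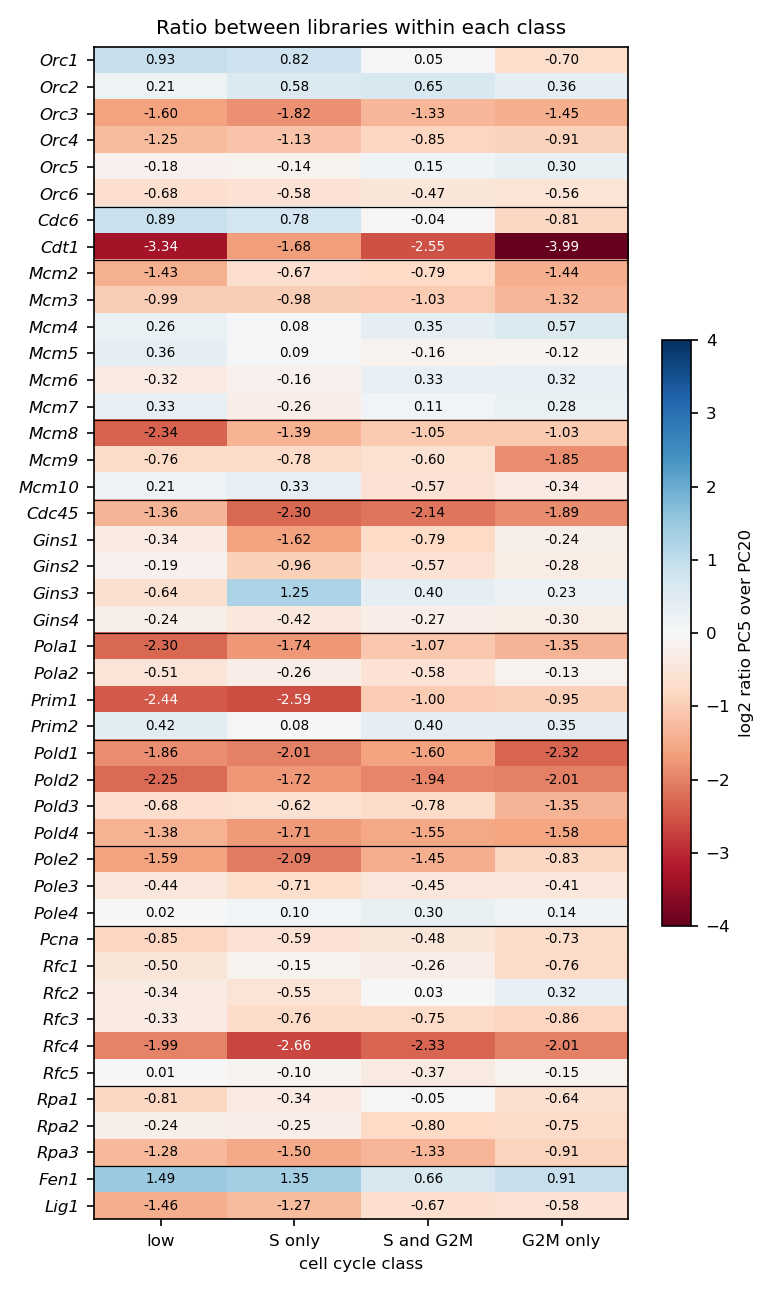
Log2 ratio of PC5 over PC20 (colour, blue higher in PC5, red higher in PC20) for each of the 44 genes, in rows by role, within each of the 4 classes, in columns. Cdt1, Rfc4 and Cdc45 are below -1 in all 4 columns, and Fen1 and Orc2 are above 0 in all 4.

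Cdt1 differed between the libraries in every class. In PC5 it stood at 2.69 CPM in low, 16.2 in S only, 9.53 in S and G2M and 2.21 in G2M only cells, so that S only cells were above low cells by 2.59 on the log2 scale (2.25 to 2.93). In PC20 the levels were 27.3, 52.0, 55.7 and 35.1 CPM, with 0.93 (0.70 to 1.15) between S only and low cells. Low PC20 cells thus held more Cdt1 than any class of PC5. The log2 ratio of PC5 over PC20 was -1.68 (-2.00 to -1.37) in S only cells and -3.99 (-4.64 to -3.39) in G2M only cells. CDT1 is a factor whose protein is known to be removed once S phase begins, and only its RNA was measured here.

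Cdc6 differed in the other way. Its levels in low, S only, S and G2M, and G2M only cells were 2.18, 16.9, 12.3 and 2.12 CPM in PC5 and 1.17, 9.88, 12.6 and 3.73 CPM in PC20. Within low and S only cells it was higher in PC5, with log2 ratios of 0.89 (0.27 to 1.57) and 0.78 (0.27 to 1.31), whereas over all cells it was higher in PC20.

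Within classes the genes of the MCM ring differed from each other as well, but not in the same grouping as over all cells. Mcm3 was at 6.41, 43.6, 42.4 and 13.0 CPM in PC5 and at 12.7, 86.1, 86.4 and 32.4 CPM in PC20, with ratios between -0.98 and -1.32. Mcm2 had ratios of -1.43 in low, -0.67 in S only, -0.79 in S and G2M and -1.44 in G2M only cells. For Mcm6 the levels were 15.7, 74.9, 70.8 and 23.8 CPM in PC5 and 19.6, 83.5, 56.2 and 19.1 CPM in PC20. Its ratio was -0.32 in low cells and 0.33 (0.20 to 0.47) in S and G2M cells. The ratios of Mcm4 ran from 0.08 to 0.57, those of Mcm5 from -0.16 to 0.36 and those of Mcm7 from -0.26 to 0.33. Mcm2 and Mcm3 were the ring genes that were higher in PC20 in each class, and each of the 6 was more than 2-fold higher in S only than in low cells of both libraries.

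The primase genes lay on opposite sides of 0 in each class, and so did the lagging-strand enzymes. Prim1 ratios ran from -2.59 in S only cells to -0.95 in G2M only cells, while those of Prim2 lay between 0.08 and 0.42. The Prim2 interval included 0 in S only (-0.42 to 0.60) and in G2M only cells (-0.19 to 0.90), so its side of 0 is not settled there. Lig1 ratios were -1.46, -1.27, -0.67 and -0.58 in low, S only, S and G2M, and G2M only cells. Fen1 was at 3.55, 18.6, 23.3 and 10.5 CPM in PC5 and at 1.27, 7.29, 14.8 and 5.60 CPM in PC20, and its ratios of 1.49, 1.35, 0.66 and 0.91 had every interval above 0. Rfc4 was between -1.99 and -2.66, and Pold2 between -1.72 and -2.25. All 4 genes of polymerase delta were higher in PC20 in each class, Pold1 by ratios from -1.60 to -2.32 and Pold3 from -0.62 to -1.35. Pole2 ran from -0.83 to -2.09, Rpa3 from -0.91 to -1.50 and Pcna from -0.48 to -0.85. Orc3 differed little between classes, with 8.23 to 10.4 CPM in PC5 and 24.9 to 30.1 CPM in PC20.

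Cells with no UMI for the proliferation markers Mki67 and Top2a gave a further view. They were 5475 PC5 and 1321 PC20 cells, and cells with either UMI made up 45.0% of PC5 and 72.2% of PC20 cells. Among cells with neither, 15 of the 42 genes were more than 2-fold higher in PC20, against 19.2% of expressed genes, and the median ratio was -0.60, against -0.02. Of the 42, Fen1 alone, at 1.02, was more than 2-fold higher in PC5, against 18.6%. Cdt1 at -3.03, Prim1 at -2.34 and Pold2 at -2.16 were among the largest there. The filter on either library was used here too, and of the 15 genes Cdt1, Prim1, Mcm8, Cdc45 and Pole2 passed it through PC20 alone. The direction differed from that over all cells for 9 of the 44 genes: Orc1, not among the 42, went to 1.04, Cdc6 to 0.94, Mcm7 to 0.40, Mcm4 to 0.30, Rfc5 to 0.28, Mcm10 to 0.25, Mcm5 to 0.22, Gins2 to 0.02 and Pole4 to -0.02. Gins2 and Pole4 thus lay close to 0, and Orc1 was scarce. No intervals were taken for these ratios, and the share of all expressed genes that changed direction was not counted. In the low class, which is another set of cells, the intervals of Mcm10 (-0.68 to 1.19), Mcm5 (-0.04 to 0.78) and Rfc5 (-0.25 to 0.28) included 0. Those of Cdc6, Mcm4 and Mcm7 lay above 0 there. Depth per cell, which is higher in PC20, bears on which cells show neither UMI, and its part was not tested.

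Genes around the replication machinery were counted in 7 lists, with the 2 largest ratios in each direction named. For every list the shares to compare are those of all expressed genes past 2-fold, 17.9% higher in PC5 and 19.1% higher in PC20. The filter on either library was used for all 7 lists. Their counts were not repeated with the filter on both libraries. Of 14 expressed regulators of origin licensing and firing, 3 were more than 2-fold higher in PC5 and 7 in PC20, and the median ratio was -0.79. The PC5 count is close to the share of all expressed genes. The cyclin genes Ccne1 (22.0 CPM at passage 5 and 1.94 CPM at passage 20, 3.51) and Ccne2 (9.70 and 3.63 CPM, 1.42), whose products drive entry into S phase, were higher in PC5. Recql4, a helicase used at origin firing, was at 0.417 and 9.33 CPM (-4.48, -4.80 to -4.18), and Mtbp, a partner of the firing factor Treslin, at 3.88 and 18.2 CPM (-2.23). This list therefore held wide ratios on both sides. Recql4 and Mtbp passed the filter through PC20 alone, and Ccne1 through PC5 alone.

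Of 12 fork protection and checkpoint genes, 5 were more than 2-fold higher in PC20 and 0 in PC5 (median -0.64). Atr, the checkpoint kinase of stalled forks, had a log2 ratio of -1.52 and Mms22l, which acts in fork repair, -1.38, while Tipin at 0.24 and Rad17 at 0.10 were the ones higher in PC5. Of 10 further clamp loader and lagging-strand genes, 6 were more than 2-fold higher in PC20 and 0 in PC5 (median -1.05), with Dscc1 at -1.83, Primpol at -1.40 and Chtf8 at 0.76. Pole, in the same list, stood at 5.68 and 11.9 CPM (-1.07, -1.17 to -0.97).

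Of 12 genes for deoxynucleotide supply, 2 were more than 2-fold higher in PC20 and 1 in PC5 (median -0.56). Rrm2, the small subunit of ribonucleotide reductase, was at 45.0 CPM at passage 5 and 160 CPM at passage 20 (-1.83), and Shmt1 had a ratio of -1.38. Samhd1, which breaks deoxynucleotides down, was at 45.3 and 16.2 CPM (1.49), and Dtymk, thymidylate kinase, at 0.97. Both counts are below the shares of all expressed genes past 2-fold.

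Of 12 genes for chromatin assembly and maintenance behind the fork, 5 were more than 2-fold higher in PC20 and 0 in PC5 (median -0.66), among them the histone chaperones Asf1a at -1.31 and Nasp at -1.24, while Supt16 stood at 0.29 and Slbp at 0.25. Of 11 repair and translesion polymerase genes, 5 were more than 2-fold higher in PC20 and 1 in PC5 (median -0.35), from Mad2l2 at -2.65 and Poli at -1.70 to Polk at 0.84 and Polm at 1.68.

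The E2F and pocket protein genes were the list with a median above 0, at 0.15 over 12 genes. Of these, 3 were more than 2-fold higher in PC5 (17.9% of expressed genes) and 1 in PC20 (19.1%). E2f8, an E2F that acts as a repressor, was at 44.3 CPM at passage 5 and 12.6 CPM at passage 20 (1.81, 1.75 to 1.88), and E2f6, likewise a repressor, at 34.3 and 16.1 CPM (1.09). Tfdp2, a dimer partner of E2F factors, had a ratio of -1.31, and Rbl1, a pocket protein, -0.77. The lists used for the classes had medians of -0.98 over 30 S phase genes, from Dscc1 at -1.83 to E2f8 at 1.81, and -1.08 over 54 G2M genes, from Smc4 at -2.87 and Mki67 at -2.50 to Rangap1 at 0.51 and Gtse1 at 0.62.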

How the data were processed

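The data are 1 single-cell library per passage of cultured mouse brain PCs, grouped by the passage in the labels. The authors deposited UMI counts for every gene and barcode, made with Cell Ranger, version 5.0 in the submitters' processing notes and 5.0.1 in the file header, on mm10, with cells called and no normalization.

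The genes and lists were chosen with earlier results of these data known. UMIs of kept cells were summed per library and divided by the total of all genes to give CPM. Intervals at the 95% level are exact Poisson for levels, conditional binomial for ratios and Clopper-Pearson for shares. Cells under 10500 UMIs (the 10th percentile of depth, taken down to the next 500) were left out of thinning (1103 in PC5 and 275 in PC20). No doublet caller was run and no doublets were removed. Instead the 5% of cells with most UMIs in each library were left out as an alternative. Every one of the 44 genes could be named. Full values were given for those past 2-fold and for the extremes of each role, and of every other list the 2 expressed genes with the largest ratio in each direction were named, fewer where a direction held fewer. Pole and the cell type markers were named beside them, and 1 marker is not reported here. Gene identifiers were matched to GENCODE M21, which held 31011 of 31053. Scripts used Python 3.11.15 with numpy 2.4.6, scipy 1.17.1, pandas 2.3.3 and matplotlib 3.10.9, and were tested on simulated counts.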

Additional observations from a re-analysis of the deposited data

How the results depend on the processing

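Of the 42 genes, between 20 and 23 were more than 2-fold higher in PC20 with all barcodes, a stricter cell filter, without the 5% of cells with most UMIs, in thinned cells, with other library sizes, with means over scaled cells and with centring on the median gene, and 0 were more than 2-fold higher in PC5. Over these settings the share of expressed genes past the mark was 18.2% to 19.8% in PC20 and 17.9% to 18.7% in PC5. The count was 15 in cells with no Mki67 or Top2a UMI (19.2% of expressed genes), where 1 gene was more than 2-fold higher in PC5 (18.6%) and the median log2 ratio was -0.60. In cells with either UMI the count was 15 (17.4%), and the median was -0.76, against 0.01 for expressed genes. With a UMI required in 10% of cells of both libraries it was 13 of 31 genes (14.1% of genes passing), with a median of -0.72, and fewer genes were counted. In cells with no Mki67 or Top2a UMI 9 of the 44 genes changed direction, among them Mcm10 from -1.22 to 0.25, and in cells with either UMI 3 did (Cdc6, Mcm4 and Mcm6). Changes of direction were not counted over all expressed genes, and no intervals were taken for these ratios. Prim2 changed direction without the 5% of cells with most UMIs. With classes split at the pooled median, 12 genes rather than 28 were more than 2-fold higher in S only than in low cells of PC20. The share of all expressed genes was not counted for that split. Without thinning, the median number of genes per cell was 9 in PC5 and 20 in PC20 instead of 5 and 9. The cause of the changes with cell choice and class limits was not tested. Pcna passed the 2-fold mark under 3 alternatives and Mcm9 under 1. Of the 21 genes past it, 7 lost it under some alternative: Rfc3 under 4, Gins1, Mcm10, Pold3 and Rpa2 under 2, and Mcm3 and Lig1 under 1. No paired analysis was possible because each passage had 1 library, and leaving out a replicate was not possible for the same reason.

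Depth limits Orc1 and Gins3 most, and the classes of PC20 with few cells. Passage, isolation and library cannot be told apart in this design, so each ratio describes these libraries.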
